A study of Zea mays with 8 samples.

Results

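The genes described here are 8 transcription factors known to control storage protein (zein) and grain-filling genes of the maize (Zea mays) endosperm, the storage tissue of the kernel. They were chosen by gene ID, and the transcript rows of each ID were summed. The 8 genes are o2, ohp1, ohp2, PBF, NAC128, NAC130, o11 and MADS47, out of 39423 genes in the deposited table. All levels were taken 12 days after pollination in the W22 background. One group holds 4 pools labelled ded1-ref, a mutant allele of ded1 (GRMZM2G121570), a MYB family factor gene of the endosperm; what the lesion is was not given in the labels. The other holds 4 pools of their normal siblings, each paired with a mutant pool. The labels name endosperm as the RNA source and kernel as the tissue, and describe the pools as biological replicates without giving how many kernels a pool holds. The comparison asks whether mutant and normal sibling endosperm differ in these factors.

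Zeins are seed proteins that fill the protein bodies of the endosperm, and their genes are switched on during grain filling by a small set of factors. The bZIP factor opaque2, encoded by o2, and the prolamin-box binding factor, encoded by PBF, bind neighbouring elements of zein promoters and can act together. Kernels without opaque2 are opaque and poor in alpha zein, the most abundant class. The proteins of ohp1 and ohp2 are bZIP relatives that pair with opaque2. NAC128 and NAC130 are related NAC factors known to act on zein and starch genes together, o11 is a bHLH factor known to act upstream of o2 and PBF, and MADS47 is a MADS-box partner of opaque2.

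Levels are in TPM, a length-corrected share of a library's transcripts, so that levels can be compared between genes but every value is relative to the rest of its library. Reads recovered from the deposited tables ran from 10536845 to 20725033 per library, and 1 read was worth between 0.0363 and 0.0823 TPM in the median row. On this scale the median of 13671 tested genes was lower in ded1-ref endosperm, with a log2 difference of -0.68. A second scale divides the TPM of a library by its median-of-ratios factor and is called scaled TPM here. On this second scale the median difference was -0.0029. The factor ran from 0.611 (replicate 3) to 0.988 (replicate 2) in ded1-ref and from 1.26 to 1.47 in normal libraries. The spread of scaled values between libraries therefore includes that of the factor. The words rose and fell are kept for genes that passed limma's test at an adjusted p of 0.05 in the same direction on both scales. Differences are ded1-ref minus normal on log2(value + 1), which understates the change of low genes, with the sibling pair as a block. Adjusted p-values are limma's, by the Benjamini-Hochberg method over all tested genes. In whole tissue, fewer cells of a type and less RNA per cell cannot be told apart.

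None of the 8 factors rose or fell on both scales. As a share of the library 4 of the 5 that could be tested were lower in ded1-ref endosperm, as were 69.8% of all tested genes. Relative to the median gene 0 of 5 passed, against 22.9% of all tested genes (12.3% higher and 10.6% lower), and 1 of the 5 (o11) had an unadjusted p under 0.05. A limma-voom fit of the recovered reads also called 0 of them. In TPM every ded1-ref library was below every normal library for 4 of the 5, as for 52.6% of tested genes, and the groups of 0 of 5 stood apart in scaled TPM, where 12.0% of tested genes stood apart in each direction. The 5 tested factors were o2, PBF, NAC128, NAC130 and o11, which were above the filter (at least 1 TPM in at least 4 libraries) in all 8 libraries. The other 3, ohp1, ohp2 and MADS47, did not reach it. In a fit without that filter 1 of these 3 (MADS47) was lower in TPM, against 32.8% of 29351 genes, and 0 of 3 passed in scaled TPM, against 8.42% in either direction. The median log2 difference of the 5 was -0.66 in TPM and 0.18 in scaled TPM, where the middle of all tested genes, between the quartiles, ran from -0.28 to 0.28.

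PBF (GRMZM2G146283), whose product recognises the prolamin box of zein promoters, was the most abundant of the 8 in both groups. Its ded1-ref libraries, in the order of replicates 1 to 4, had 138, 180, 152 and 171 TPM, against 239, 296, 263 and 216 TPM in normal replicates 1 to 4. Every ded1-ref library was below every normal library. The means were 160.2 ± 18.9 TPM in ded1-ref and 254 ± 34.5 TPM in normal endosperm (SD, n = 4), a log2 difference of -0.66 ± 0.13 (SE, limma adjusted p = 8.6e-04). In scaled TPM the means were 211 ± 28.7 in ded1-ref and 186 ± 18.2 in normal endosperm, and the groups overlapped. The scaled difference was 0.18 ± 0.14 with a 95% interval from -0.14 to 0.50 (limma adjusted p = 0.403). By rank among tested genes PBF was number 277 in ded1-ref and number 317 in normal endosperm. The reference table lists this ID under 2 neighbouring entries, so reads of another gene may be counted with PBF.

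The opaque2 gene, o2 (GRMZM2G015534), had 113, 110.1, 127.9 and 70.1 TPM in the ded1-ref libraries of replicates 1 to 4, against 128.1, 164, 205 and 169 TPM in the normal ones. The groups did not overlap, but only narrowly: the highest ded1-ref value was 127.9 TPM and the lowest normal value 128.1 TPM. The means were 105 ± 24.7 TPM in ded1-ref and 166 ± 31.5 TPM in normal endosperm (SD, n = 4), a log2 difference of -0.67 ± 0.16 (SE, limma adjusted p = 0.00299). Scaled values were 163, 111, 209 and 88.1 in ded1-ref and 102, 111, 149 and 125 in normal libraries, so the ded1-ref libraries included both the highest and the lowest of the 8. The scaled difference was 0.17 ± 0.19, with a 95% interval from -0.26 to 0.59 (limma adjusted p = 0.582). Its sign rests on pair 1, being -0.0059 without it.

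Nearly all o2 transcript came from 1 of its 4 transcript rows. T02 held 99.8% of the o2 TPM in ded1-ref and 99.7% in normal endosperm. T01 had 21 reads over the ded1-ref and 37 over the normal libraries, and T03 and T04 had 0 in every library. Over all 8 factors 12 of 20 transcript rows had any read.

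The bZIP relatives of opaque2 were read at very low levels. Whether these levels reflect the tissue or the unstated counting and genome build was not tested, and this holds for each ratio that uses them. ohp1 (GRMZM2G016150) had 0.921, 0.597, 0.633 and 0.665 TPM in the ded1-ref libraries of replicates 1 to 4, against 0.890, 0.648, 1.23 and 1.03 TPM in normal replicates 1 to 4. These values rest on 82 reads over the ded1-ref and 80 over the normal libraries. Tested without the filter on low values, its log2 difference was -0.19 in TPM (limma adjusted p = 0.433) and 0.19 in scaled TPM (limma adjusted p = 0.541). In ded1-ref it was lower in 3 of 4 pairs in TPM and higher in 4 of 4 in scaled TPM. The groups overlapped on both scales, and no difference was detected.

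ohp2 (GRMZM2G007063) was the lowest of the 8 in both groups, with 1, 3, 1 and 2 reads in replicates 1 to 4, against 0, 4, 9 and 4 reads in normal replicates 1 to 4. The means were 0.130 ± 0.0620 TPM in ded1-ref and 0.407 ± 0.308 TPM in normal endosperm (SD, n = 4). The 0 in normal replicate 1 allows up to 0.296 TPM of transcript row T02, at 3 reads. Without the filter limma gave an adjusted p = 0.109 in TPM and 0.469 in scaled TPM. The share of ohp1 in the summed TPM of the pair was 84.0% ± 8.06 in ded1-ref and 72.9% ± 19.4 in normal endosperm (exact two-sided permutation p = 0.343). The difference of 11.1 percentage points was 16.9 without replicate 1, 6.58 without replicate 3 and 4.26 with the most abundant row of each gene alone. Both genes are near relatives, and the counting rule for reads that fit both is not given in the sources used here, so the split between them is uncertain. For each TPM of ohp1 and ohp2 together there were 128.3 ± 38.6 TPM of o2 in ded1-ref and 127.3 ± 18.7 in normal endosperm, with a difference of mean log2 ratios of -0.028 (exact two-sided permutation p = 0.857, n = 4).

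NAC128 (GRMZM2G062650) had the largest difference in TPM of the 5 tested factors. Its ded1-ref libraries, in the order of replicates 1 to 4, had 88.2, 76.2, 109 and 47.7 TPM, against 143, 162, 139.5 and 164 TPM in normal replicates 1 to 4. All ded1-ref libraries were lower, and they were spread more widely than the normal ones. The means were 80.3 ± 25.7 TPM in ded1-ref and 152 ± 12.6 TPM in normal endosperm (SD, n = 4), a log2 difference of -0.97 ± 0.19 (SE, limma adjusted p = 8.6e-04). In scaled TPM the ded1-ref libraries stood at 127, 77.1, 179 and 60.0, on both sides of the normal libraries at 114, 110.1, 101 and 121. The scaled difference was -0.13 ± 0.26, with a 95% interval from -0.71 to 0.44 (limma adjusted p = 0.752), and it was 0.16 without replicate 4 and -0.44 without replicate 3. Of its 2 transcript rows, T02 held 68.4% of the TPM in ded1-ref and 68.1% in normal endosperm.

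NAC130 (GRMZM2G154182) was far below its relative, with 7.12, 7.92, 4.63 and 8.40 TPM in the ded1-ref libraries of replicates 1 to 4, against 13.0, 8.999, 8.51 and 11.8 TPM in normal replicates 1 to 4. The groups did not overlap: the highest ded1-ref library had 8.40 TPM and the lowest normal library 8.51 TPM. The log2 difference was -0.54 ± 0.19 (SE, limma adjusted p = 0.0229), and the call was lost without replicate 1 or 3 (limma adjusted p = 0.128 and 0.0684) and on TPM set again without zein genes (limma adjusted p = 0.114). In scaled TPM the difference was 0.21 ± 0.15, with a 95% interval from -0.12 to 0.54 (limma adjusted p = 0.346). The ratio of NAC128 to NAC130 was 12.8 ± 7.70 in ded1-ref and 14.8 ± 3.05 in normal endosperm (SD, n = 4; exact two-sided permutation p = 0.486). Its mean log2 difference was -0.37, and it was -0.55, -0.20, -0.67 and -0.068 without replicate 1, 2, 3 and 4 in turn. Within ded1-ref the ratio ran from 5.67 in replicate 4 to 23.6 in replicate 3, wider than the 11.0 to 17.97 of the normal libraries. T03 was the single NAC130 transcript row with reads. How reads that fit both NAC genes were counted is not given, so their ratio is uncertain. NAC128 and NAC130 are names from the study of zein regulation, and the reference table lists the IDs as NRP1 and nac4.

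**Figure D1:**
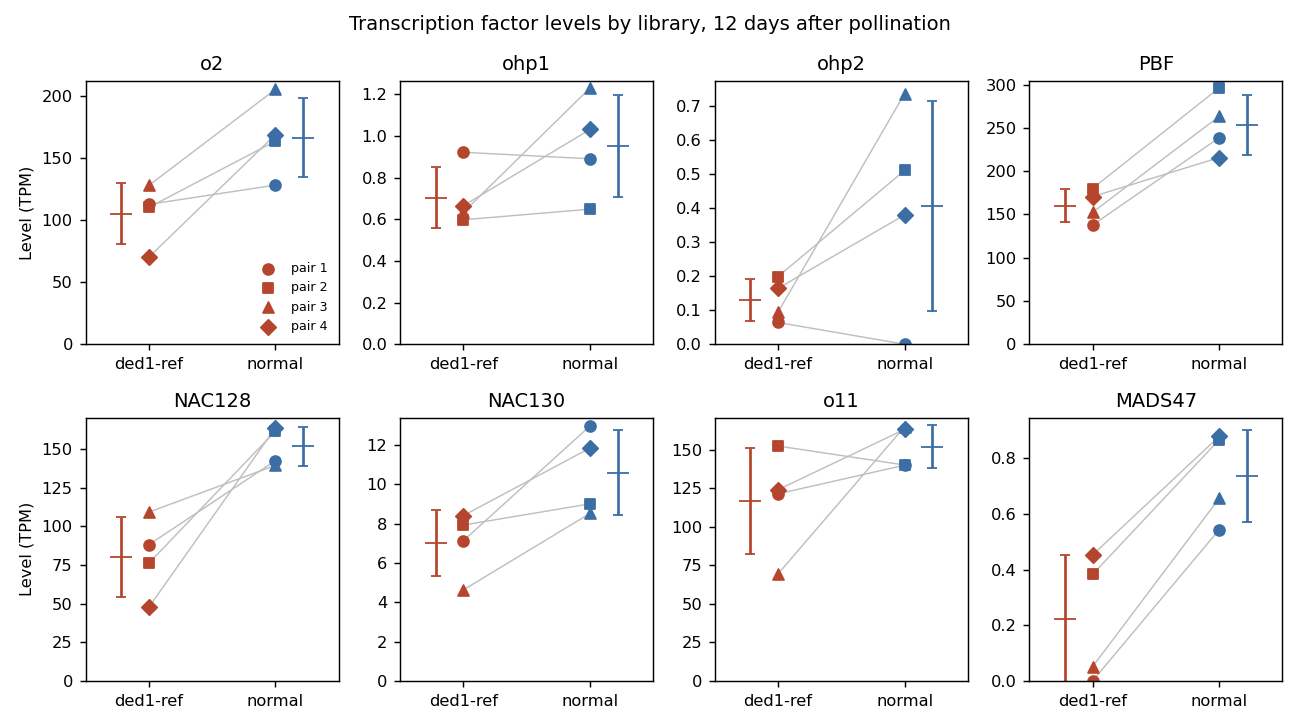
Levels of the 8 factors in TPM (linear axis from 0, a different range in each panel), with ded1-ref libraries left of normal libraries. Each point is 1 library, grey lines join sibling pools, and the bars beside the points give mean ± SD (n = 4, cut at 0). PBF, o2, NAC128, NAC130 and MADS47 have every ded1-ref point below every normal point, while o11, ohp1 and ohp2 overlap.

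The bHLH factor gene o11 (GRMZM2G147685) had the highest scaled difference of the 5 tested factors. Its ded1-ref libraries, in the order of replicates 1 to 4, had 121, 152, 69.4 and 124 TPM, against 139.9, 140.0, 165 and 163 TPM in normal replicates 1 to 4. The groups overlapped, with ded1-ref replicate 3 far below the rest and ded1-ref replicate 2 above 2 of the 4 normal libraries. The log2 difference was -0.43 ± 0.19 (SE), which missed the threshold (limma adjusted p = 0.0520). It passed without replicate 1 or 2 (limma adjusted p = 0.0303 and 0.0226), and was -0.16 without replicate 3 (limma adjusted p = 0.348) and -0.22 on TPM set again without zein genes (limma adjusted p = 0.310). In scaled TPM the levels were 175, 154, 114 and 156 in ded1-ref and 111, 95.4, 119.6 and 121 in normal libraries. The scaled difference was 0.41 ± 0.15, with a 95% interval from 0.060 to 0.76, and it missed the threshold (limma adjusted p = 0.0901). It was 0.57 and passed without replicate 3 (limma adjusted p = 0.0309). Of all tested genes 82.5% had a lower scaled difference than o11.

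MADS47 (GRMZM2G059102) had 0, 0.383, 0.0511 and 0.453 TPM in the ded1-ref libraries of replicates 1 to 4, against 0.544, 0.867, 0.656 and 0.879 TPM in normal replicates 1 to 4. These are 20 reads over the ded1-ref and 48 over the normal libraries. The 0 in ded1-ref replicate 1 allows up to 0.105 TPM of transcript row T01, at 3 reads. Every ded1-ref library was below every normal one in TPM, and without the filter it was lower there (log2 difference -0.52, limma adjusted p = 0.0136). In scaled TPM the groups overlapped (-0.31, limma adjusted p = 0.159). The reference table gives the name MADS47 to another gene, GRMZM2G099577, which is outside the 8 and was looked up after the values were seen. That gene stood at 2.81 ± 0.227 TPM in ded1-ref and 7.14 ± 1.21 TPM in normal endosperm (SD, n = 4), with a log2 difference of -1.08 in TPM and -0.39 in scaled TPM (limma adjusted p = 5.4e-04 and 0.172). The reference table lists GRMZM2G059102 as m20, and does not settle which of both IDs is the opaque2 partner.

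**Figure D2:**
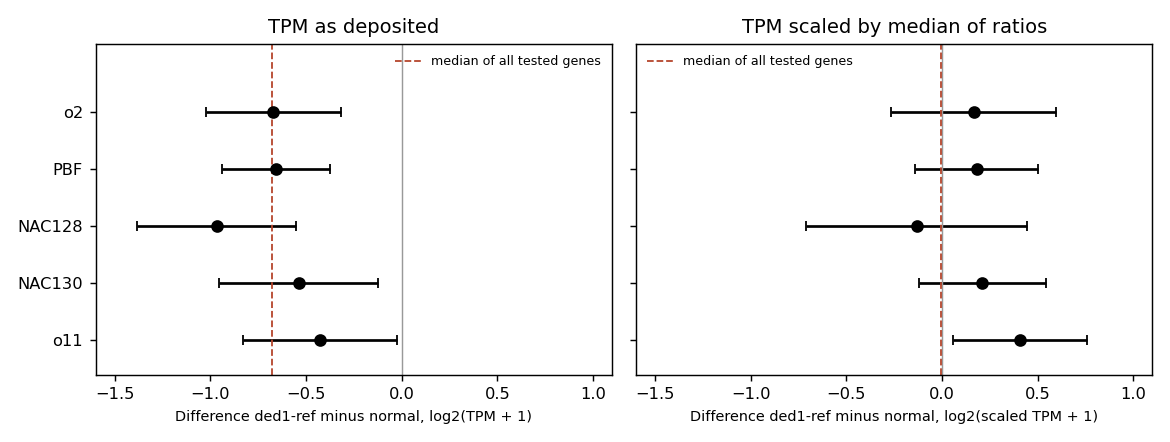
Log2 difference of ded1-ref minus normal for the 5 tested factors on log2(TPM + 1) (left) and log2(scaled TPM + 1) (right), with 95% intervals from limma. The dashed line is the median of all 13671 tested genes, -0.68 on the left and -0.0029 on the right; on the left all 5 intervals include it, and on the right those of o2, PBF, NAC128 and NAC130 include it and that of o11, 0.060 to 0.76, does not.

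In order of level, the factors in ded1-ref were PBF, o11, o2, NAC128, NAC130, ohp1, MADS47 and ohp2. In normal endosperm they were PBF, o2, o11, NAC128, NAC130, ohp1, MADS47 and ohp2, so that o2 and o11 changed places. Their libraries overlapped in both groups (69.4 to 152 TPM for o11 and 70.1 to 128 TPM for o2 in ded1-ref, 139.9 to 165 and 128.1 to 205 TPM in normal endosperm), and so did those of o2 and NAC128. PBF stood clear of the others in normal endosperm, and in ded1-ref its lowest library, at 138 TPM, was below the highest of o11. NAC130 was clear of its neighbours in both groups, while ohp1 overlapped MADS47 in normal endosperm and not in ded1-ref.

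Together the 8 factors summed to 468, 528, 464 and 422 TPM in the ded1-ref libraries of replicates 1 to 4, against 664, 773, 784 and 726 TPM in normal replicates 1 to 4. Within that sum PBF took 34.2% ± 4.60 in ded1-ref and 34.4% ± 3.67 in normal endosperm (SD, n = 4). The share of o2 was 22.3% ± 4.66 in ded1-ref and 22.5% ± 2.94 in normal endosperm. The share of o11 was 24.8% ± 6.73 in ded1-ref and 20.7% ± 1.83 in normal endosperm, and that of NAC128 was 17.0% ± 5.33 in ded1-ref and 20.7% ± 2.05 in normal endosperm. These differences in share were within the SD of the ded1-ref libraries. The ratio of o2 to PBF, partners on zein promoters, was 0.670 ± 0.201 in ded1-ref and 0.662 ± 0.137 in normal endosperm, with a difference of mean log2 ratios of -0.017 (exact two-sided permutation p = 1, n = 4).

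The order of the pairs differed between factors. In scaled TPM, o2 differed by 0.67, 0.00, 0.49 and -0.50 log2 units in pairs 1 to 4, and NAC128 by 0.16, -0.51, 0.82 and -1.001. Both were lowest in pair 4. The differences of o11 were 0.65, 0.69, -0.07 and 0.37, lowest in pair 3, where NAC128 was highest. PBF differed by 0.07, -0.15, 0.38 and 0.43, and NAC130 by -0.0045, 0.34, 0.26 and 0.25. Over the 8 libraries the root mean square distance between centred log2 scaled levels was smallest for NAC130 and o11 (0.24) and for o2 and NAC128 (0.26). It was largest for NAC128 and o11 (0.61). The paralogs NAC128 and NAC130 were 0.56 apart.

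**Figure D3:**
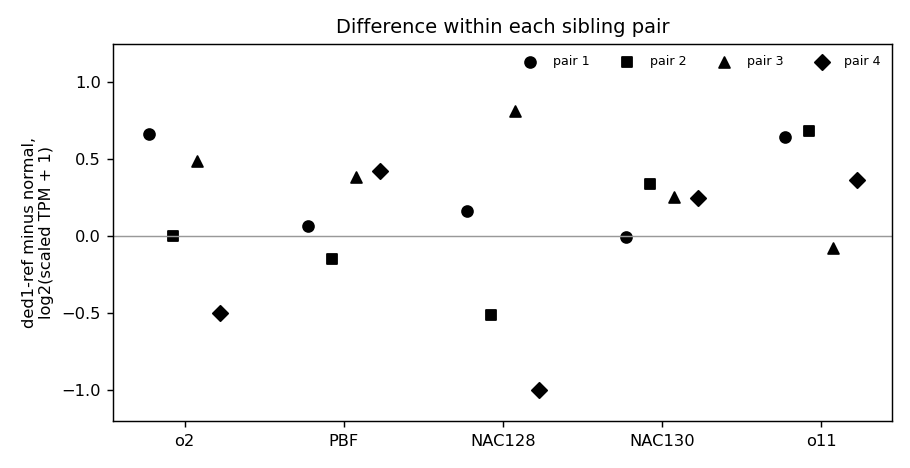
Difference of ded1-ref minus normal within each sibling pair, in log2(scaled TPM + 1), for the 5 tested factors. Each point is 1 pair; o2 and NAC128 spread from below -0.4 to above 0.6, while PBF and NAC130 stay between -0.15 and 0.43.

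By the same distance, the named gene nearest to each factor was looked for among 1211 tested genes with an informative name. They were MUB14 for o2 (0.10), Pds for PBF (0.084), MUB6 for NAC128 (0.12), nfa101 for NAC130 (0.13) and cha101 for o11 (0.083). Of these, nfa101 was near the filter, at 0.926 ± 0.290 TPM in ded1-ref and 1.33 ± 0.460 TPM in normal endosperm. At such levels log2(value + 1) understates changes. The median distance to all candidates ran from 0.36 for PBF to 0.54 for NAC128. Pds (GRMZM2G410515), named as phytoene desaturase of carotenoid synthesis, stood at 11.3 ± 2.10 TPM in ded1-ref and 18.1 ± 2.20 TPM in normal endosperm (SD, n = 4).

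The authors' deposited table, which tests transcript rows, holds a fold for 12 rows of the 8 factors and an adjusted p for 9. It has 0 of those 9 under 0.05, against 14.7% of all rows with an adjusted p. In the authors' deposited table the log2 fold of ded1-ref over normal was 0.23 for o2 T02, 0.19 for PBF T01, 0.21 for NAC130 T03 and 0.42 for o11 T01, with an authors' adjusted p of 0.0914 for o11. The same deposited table gives -0.048 and 0.015 for NAC128 T01 and T02.

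Alpha zein genes are the best known targets of opaque2 and PBF. Of 21 alpha zein genes tested, 20 rose on both scales, against 3.53% of all tested genes (11 without replicate 4, 9 without the filter). The exception, z1C1_8 (GRMZM2G044152), passed in scaled TPM alone. Their direction in these libraries was known when the list was drawn up, so their count is no independent evidence. They made up 36.0% ± 1.80 of all TPM in ded1-ref and 24.4% ± 1.89 in normal endosperm (SD, n = 4). z1C1_4 (GRMZM2G044625), the most abundant, stood at 77473 ± 5425 TPM in ded1-ref and 57956 ± 3949 TPM in normal endosperm, and was not called without replicate 1, 2 or 4 or without the filter. z1C2 (GRMZM2G397687), the next, stood at 55738 ± 3589 TPM in ded1-ref and 37326 ± 2989 TPM in normal endosperm, and was not called without replicate 1 or 4 or without the filter. z1C1_12 (GRMZM2G088365) rose most, with 5995 ± 822 TPM in ded1-ref and 956 ± 391 TPM in normal endosperm, and z1C1_11 (GRMZM2G088273) was next, with 207 ± 59.8 TPM in ded1-ref and 50.3 ± 22.6 TPM in normal endosperm. Alpha zein genes are near-identical copies, so the values of single copies are uncertain and their sum is the firmer reading.

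For each TPM of the 8 factors together there were 784, 647, 823 and 829.7 TPM of alpha zein in ded1-ref replicates 1 to 4, against 403, 294, 293 and 346 in normal replicates 1 to 4. All ded1-ref libraries were above all normal libraries. The mean log2 difference of this ratio was 1.21, a 2.32-fold higher ratio, and it was higher in 4 of 4 pairs. The exact two-sided permutation p = 0.0286 is the smallest that 4 libraries against 4 allow, and over the 6 ratios computed the Benjamini-Hochberg adjusted permutation p = 0.171. This permutation leaves the pairing out. Sign flips over the 4 pairs gave an exact p = 0.125, the smallest that 4 pairs allow. As the direction of the alpha zein genes was known beforehand, none of these p-values is independent evidence. For the 5 gamma, beta and delta zein genes the ratio was 87.6 ± 13.1 in ded1-ref and 83.2 ± 8.35 in normal endosperm, a log2 difference of 0.069 (exact two-sided permutation p = 0.657). No scaling of a library can alter these ratios. In TPM the median log2 difference was 0.52 for the alpha zein genes, -0.66 for the 5 tested factors and -0.68 for all tested genes. The higher alpha zein ratio is thus not particular to the 8 factors.

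**Figure D4:**
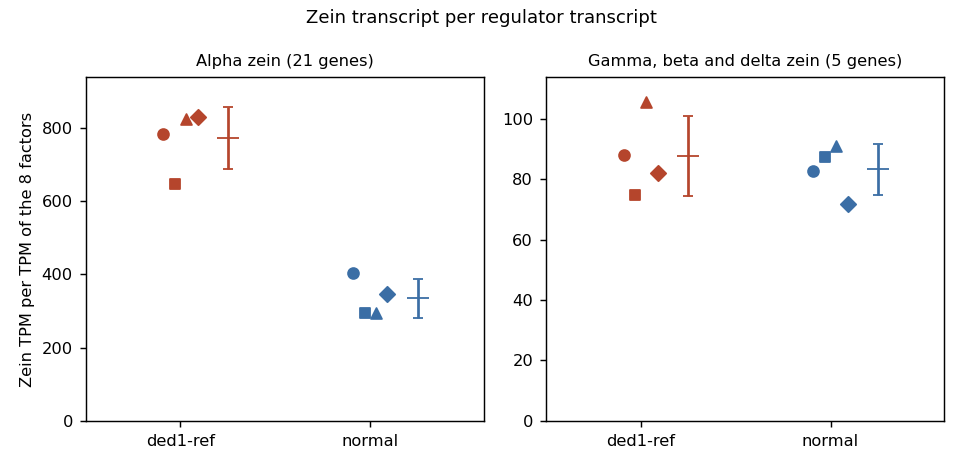
Summed TPM of alpha zein genes (left) and of gamma, beta and delta zein genes (right) per TPM of the 8 factors, by library, ded1-ref left of normal (linear axes from 0). Bars give mean ± SD (n = 4). The alpha zein ratio is between 647 and 829.7 in ded1-ref and between 293 and 403 in normal libraries, while the groups overlap on the right.

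Of the other zein genes, gz16 (GRMZM2G060429), a gamma zein gene known to depend on NAC128 and NAC130, stood at 17630 ± 3771 TPM in ded1-ref and 29448 ± 4296 TPM in normal endosperm (SD, n = 4), with a scaled log2 difference of 0.092 (limma adjusted p = 0.850). bz15 (GRMZM2G086294), the beta zein gene, stood at 6048 ± 558 TPM in ded1-ref and 11070 ± 1916 TPM in normal endosperm, with a scaled difference of -0.017 (limma adjusted p = 0.968). gz50 (GRMZM2G138689), a gamma zein gene, stood at 8304 ± 972 TPM in ded1-ref and 7117 ± 642 TPM in normal endosperm. Its scaled difference was the largest of the 5 and above the 0.89 of the alpha zein gene z1C1_8. Scaled differences were 0.46 for gz27 and -0.016 for dzs18. Of the 5, 1 was higher in scaled TPM and 4 were lower in TPM. None of the 5 rose or fell on both scales. The background on both scales was 3.53% that rose and 10.6% that fell.

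Targets outside the zein family were read from a separate list. Of 21 matched genes (starch synthesis, sucrose synthase, pyruvate dikinase, lysine metabolism and ribosome-inactivating protein genes) 17 were tested, 1 rose and 3 fell, and the median scaled difference was -0.28. The background was 3.53% of all tested genes that rose and 10.6% that fell. b-32 (GRMZM2G063536), a ribosome-inactivating protein gene known as a direct target of opaque2, was the 1 that rose. It stood at 686 ± 229 TPM in ded1-ref and 489 ± 200 TPM in normal endosperm (SD, n = 4), a log2 difference of 0.48 in TPM and 1.32 in scaled TPM (limma adjusted p = 0.0319 and 8.4e-04). The call was lost without the block, without the filter and without replicate 2 or 4. The most abundant target was ae1 (GRMZM2G032628), a starch branching enzyme gene, at 1493 ± 125 TPM in ded1-ref and 2667 ± 296 TPM in normal endosperm, with a scaled difference of 0.0092 (limma adjusted p = 0.979). PPDK (GRMZM2G097457), a pyruvate orthophosphate dikinase gene, stood at 525 ± 168 TPM in ded1-ref and 1127 ± 296 TPM in normal endosperm, with a scaled difference of -0.28 (limma adjusted p = 0.492).

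The 3 targets that fell were sbe1 (GRMZM2G088737), ss2 (GRMZM2G152908, also listed as sus1) and sus2 (GRMZM2G318780), of starch branching and sucrose synthase names. The scaled log2 differences were -1.002 for sbe1, -0.77 for ss2 and -0.84 for sus2. sbe1 stood at 1.91 ± 1.35 TPM in ded1-ref and 7.45 ± 1.93 TPM in normal endosperm, under an ID that the reference table gives to a pair of entries. Another tested target ID named sbe1, GRMZM2G088753, neither rose nor fell on both scales, with a scaled difference of 0.0017. sus2 lost its call without replicate 1, 3 or 4, without the filter and at a pseudocount of 0.1. ss2 lost its call without the filter. ss2 stood at 0.394 ± 0.123 TPM in ded1-ref and 2.17 ± 0.702 TPM in normal endosperm. The levels of sus2 were 0.465 ± 0.190 TPM in ded1-ref and 2.73 ± 1.77 TPM in normal endosperm (SD, n = 4). Both were below 1 TPM in ded1-ref and met the filter through the normal libraries alone. The count of 3 that fell is therefore not comparable with the share of all tested genes. bt2 (GRMZM2G068506), an ADP-glucose pyrophosphorylase gene known as a NAC target, was read at 1.93 ± 0.495 TPM in ded1-ref and 2.98 ± 1.69 TPM in normal endosperm. sh2 (GRMZM2G429899), the other subunit, was read at 4.37 ± 1.98 TPM in ded1-ref and 7.81 ± 5.10 TPM in normal endosperm. wx1 (GRMZM2G024993), the granule-bound starch synthase gene, was read at 2.14 ± 0.754 TPM in ded1-ref and 3.53 ± 0.691 TPM in normal endosperm. All of bt2, sh2 and wx1 are known as strongly expressed in this tissue, and the reason for these low readings was not tested.

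Among other regulators of the endosperm, fl3 (GRMZM2G006585), the gene of the floury3 mutant, fell to 178 ± 115 TPM in ded1-ref, against 5794 ± 1178 TPM in normal endosperm (SD, n = 4), a scaled log2 difference of -4.38 (limma adjusted p = 2.9e-05). ded1 itself rose, to 76.3 ± 16.3 TPM in ded1-ref against 39.4 ± 2.18 TPM in normal endosperm, so its transcript level does not check the genotype labels. fie1 (GRMZM2G118205), an imprinted Polycomb gene, stood at 119 ± 10.4 TPM in ded1-ref and 126 ± 19.7 TPM in normal endosperm, with a scaled difference of 0.77 (limma adjusted p = 0.0120) and no call in TPM. Of 7 tested genes in this list 2 rose (ded1 and NAC126) and 1 fell (fl3), against 3.53% and 10.6% of all tested genes.

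Among 141 other genes named for the bZIP, NAC, DOF, MADS or bHLH families, 36 were tested, 2 rose and 3 fell. Of all tested genes 3.53% rose and 10.6% fell. Their median difference was -0.56 in TPM and 0.089 in scaled TPM, beside -0.66 and 0.18 for the 5 factors. NAC12 (GRMZM2G018436, also listed as NAC126) rose, to 8.82 ± 4.06 TPM in ded1-ref against 4.47 ± 1.21 TPM in normal endosperm (SD, n = 4). bZIP50 (GRMZM2G336766) also rose, to 3.95 ± 1.73 TPM in ded1-ref against 1.74 ± 0.936 TPM in normal endosperm, and lost the call without replicate 2 and without the filter. DOF36 (GRMZM2G137502), the most abundant of them and of the family of PBF, stood at 47.0 ± 11.9 TPM in ded1-ref and 93.8 ± 7.25 TPM in normal endosperm, with a scaled difference of -0.19 (limma adjusted p = 0.296). bHLH129 (GRMZM5G856837), of the family of o11, stood at 39.9 ± 6.50 TPM in ded1-ref and 67.2 ± 7.91 TPM in normal endosperm, with a scaled difference of 0.081 (limma adjusted p = 0.685). The 3 that fell were bZIP46, bZip112 and zmm16, with scaled differences of -0.46, -0.85 and -1.33. bZIP46 lost its call with any single pair left out, without the block and without the filter, and bZip112 without replicate 3 or 4 and without the filter.

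**Figure D5:**
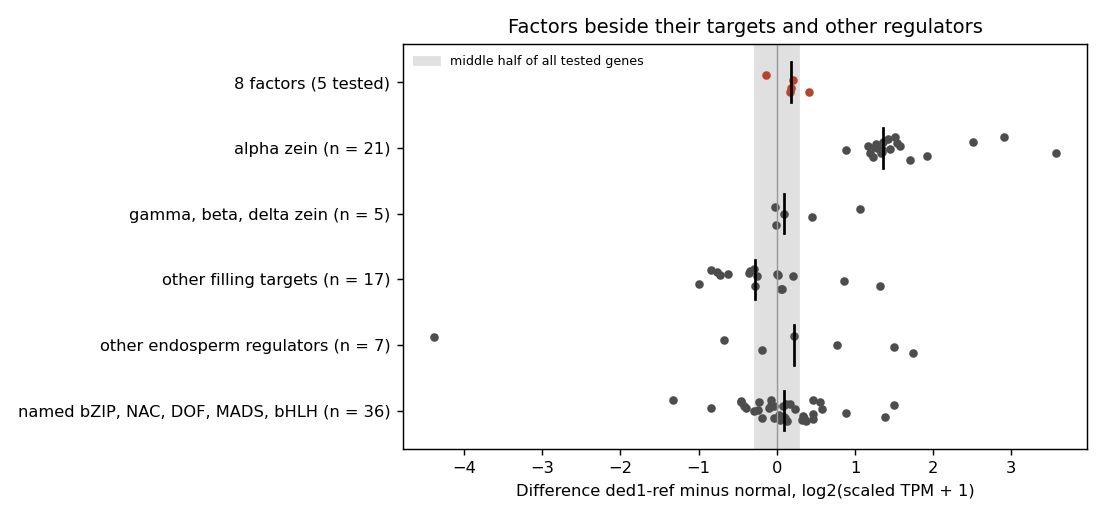
Difference of ded1-ref minus normal in log2(scaled TPM + 1) for the tested genes of each list, 1 point per gene with the list's median as a bar. The grey band spans the quartiles of all tested genes, -0.28 to 0.28. The factors lie between -0.13 and 0.41, while all 21 alpha zein points, from 0.89 up, lie above the band.

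Markers of the kernel's cell types were read beside these results. The summed level of 6 starchy endosperm genes, of which gz50, gz27 and ae1 made up nearly all, ran from 12499 to 16161 TPM in ded1-ref and from 14079 to 17007 TPM in normal libraries. All 6 also belong to the zein or target lists above, so their sum is no separate measure of that cell type. The sum of 9 basal transfer layer genes ran from 150.4 to 292 TPM in ded1-ref and from 489 to 1221 TPM in normal libraries. All 6 tested ones fell, against 10.6% of all tested genes. Of these 6, tcrr-1 met the filter through the normal libraries alone. Its levels were 0.202 ± 0.167 TPM in ded1-ref and 16.2 ± 6.85 TPM in normal endosperm (SD, n = 4). Of the 9 basal transfer layer genes, BETL1 was at 0 in all 8 libraries and INCW2 in all ded1-ref libraries. The 11 embryo genes summed to 235 to 435 TPM in ded1-ref and 293 to 516 TPM in normal libraries, nearly all of it ole1, while 3 of them were at 0 in every ded1-ref library and 5 in every normal library. The 9 aleurone genes summed to 15.2 to 46.3 TPM in ded1-ref and 26.4 to 37.6 TPM in normal libraries. Among them bz2 had 2.51 ± 0.902 TPM in ded1-ref and 0.169 ± 0.164 TPM in normal endosperm. The levels of a2 were 8.08 ± 5.69 TPM in ded1-ref and 0.0783 ± 0.0786 TPM in normal endosperm. Both were below 1 TPM in normal endosperm and met the filter through the ded1-ref libraries alone. Counts that include them are therefore not comparable with the share of all tested genes. Of the 6 tested, 3 rose, against 3.53% of all tested genes: the anthocyanin pathway genes c1, bz2 and a2. The other 3 neither rose nor fell on both scales, with lower mean TPM in ded1-ref than in normal endosperm: cr4 had 3.68 ± 1.38 in ded1-ref and 5.25 ± 0.427 in normal endosperm, vpp1 had 2.95 ± 1.65 in ded1-ref and 8.55 ± 2.76 in normal endosperm, and dek1 had 7.88 ± 3.54 in ded1-ref and 13.7 ± 1.04 in normal endosperm (SD, n = 4). The 4 genes of the embryo-surrounding region summed to 23.4 to 49.3 TPM in ded1-ref and 11.5 to 55.6 TPM in normal libraries. The part of these markers in the levels of the factors was not tested.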

How the data were processed

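RNA was measured in 4 ded1-ref and 4 normal libraries made, per the labels, with a non-strand-specific kit, so the strand of a read cannot assign it between overlapping genes. The submitters' processing notes name GSNAP, Trimmomatic 0.22 and cutadapt 1.1. Neither a counter nor a genome build is stated. The authors deposited TPM for 63293 transcript rows. Per the file headers, their second table holds a mean normalized signal, a log2 fold change with its standard error, a test score, and p-values. The sign of the test score runs against that of the fold change, which was read as headed, ded1-ref over normal.

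Rows were summed to genes. Reads were solved from the authors' mean signal and the deposited TPM, and 100% of 236228 values above 0 came out whole to within 0.05 reads. limma 3.58.1 in R 4.3.3 was fitted to log2(value + 1) of the 13671 genes that reached 1 TPM in 4 or more libraries, with the stated sibling pair as a block. Deviations of paired libraries from their group means correlated at 0.115, 0.333, 0.309 and 0.149. P-values measure the spread between these pools. Ratios were compared by exact permutation of the 8 libraries without regard to the pairs. Counting floors (3 reads) cover counting error only.

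The 8 genes and the lists were chosen with earlier results of these data known. All 8 were named; in each list, the 2 genes of highest mean TPM and the 2 of largest change past both tests were named. Targets bt2, sh2 and wx1, the marker genes, the calls named to complete a count of 3, and GRMZM2G099577 were added after values were seen. A RefSeq gene table (assembly Zm-B73-REFERENCE-NAM-5.0) gave names and matched 18771 of 39423 IDs; 6 genes matched by symbol were struck from lists as other genes. NAC128, NAC130 and MADS47 are names given with the gene IDs, not by that table. No coordinates are given because the build is not stated, and no sequences were used here. Alternatives were a pseudocount of 0.1, no filter, no block, each pair left out, upper quartile scaling, TPM without zein genes, transcript rows, the top row of a gene, and limma-voom on recovered reads.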

Additional observations from a re-analysis of the deposited data

How the results depend on the processing

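The numbers of tested genes were 482 higher and 9539 lower in TPM, and 1688 and 1445 in scaled TPM. Without the replicate block they were 402 and 8842 in TPM and 1397 and 1242 in scaled TPM, and no call of a factor changed. With 1 pair left out, the scaled counts ran from 1124 to 1466 higher and from 919 to 1243 lower, lowest without replicate 1 and without replicate 2, and those in TPM from 366 to 570 and from 8038 to 9195. The number of factors lower in TPM ran from 3 to 5, and of those higher in scaled TPM from 0 to 1 (o11, without replicate 3). For the factors themselves the TPM differences ran from -0.83 to -0.48 for o2, -0.76 to -0.61 for PBF, -1.17 to -0.70 for NAC128, -0.66 to -0.46 for NAC130 and -0.61 to -0.16 for o11. In scaled TPM they ran from -0.0059 to 0.39 for o2, 0.10 to 0.29 for PBF, -0.44 to 0.16 for NAC128, 0.16 to 0.28 for NAC130 and 0.31 to 0.57 for o11. The sign changes of o2 (-0.0059 without replicate 1) and NAC128 (0.16 without replicate 4) concern differences that did not pass. On TPM set again without zein genes NAC130 stood at -0.36 and was not called. On that scale o2 (-0.46), PBF (-0.44) and NAC128 (-0.76) stayed lower (limma adjusted p = 0.0338, 0.0108 and 0.0101). Upper quartile scaling, a pseudocount of 0.1, transcript rows and voom changed no call of a tested factor.

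The difference of mean log2 ratios of o2 to PBF was -0.017 and ran from -0.22 to 0.29 with 1 pair left out. That of o2 to ohp1 plus ohp2 was -0.028 and ran from -0.29 to 0.13. Against these log2 differences, both changed sign without replicate 4 (0.29 and 0.13), and the second also without replicate 1 (0.074). The difference for NAC128 to NAC130 ran from -0.67 to -0.068, and that of the ohp1 share from 6.58 to 16.9 percentage points. The alpha zein ratio ran from 1.12 to 1.30, where the exact permutation p of 0.1 is the smallest that 3 against 3 libraries allow. With the replicate block, as sign flips over 4 pairs, it was 1.21 at the smallest exact p that 4 pairs allow, 0.125. The cause of these shifts was not tested. On TPM set again without zein genes o11 stood at -0.22. The values of ohp1, ohp2 and MADS47 rest on few reads, 0 to 32 per library.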
